A study of Mus musculus with 2 samples.

Results

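Autophagy and mitophagy genes, 36 in number, were examined in the fetal mouse liver. They encode the machinery that forms the autophagosome, the receptors that load it, a kinase that marks damaged mitochondria and a transcription factor of the pathway. The members are a named list, found in the gene and transcript tables by gene identifier. All 36 were found, among 43346 Ensembl genes and 21474 annotated as protein coding, and they have 213 of 103639 annotated transcripts. The samples form 1 group of 2 replicates, RNA-seq libraries of total RNA over 200 nt from pooled livers of B6NCrl embryos of both sexes at embryonic day 16.5. The labels list no treatment or mutation. Replicate 2 pooled 41 embryos, and no number is given for replicate 1. The labels number them biological replicates 1 and 2, but both carry the same donor identifier, so the spread between them may be partly technical. There is no second condition, and no test between conditions or p-value is given. Values are TPM (an abundance per unit of length, relative to all transcripts of a library) as the mean ± SD of both libraries (n = 2) unless a library is named.

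In autophagy a double membrane closes around cytoplasm and delivers it to the lysosome. The ULK kinase complex starts the process, a class III phosphatidylinositol 3-kinase complex marks the membrane, and WIPI, ATG2 and ATG9 proteins help it grow. A conjugation machinery then attaches ATG8 proteins (the LC3 and GABARAP subfamilies) to the membrane, where they bind cargo receptors. Mitophagy is the same process with mitochondria as cargo. The fetal liver makes red cells, which clear their mitochondria as they mature, and Bnip3l, also called Nix, is known for its role in that clearance.

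The sequences behind these functions are shown first. The transcripts described below differ in whether they carry the annotated reading frame around them, and some without that frame still hold the same bases. ATG4 proteases cut each ATG8 protein after its last glycine, the residue that is joined to lipid. The end of the reading frame of 4 of these genes, from the annotated coding transcript, is given 5′ to 3′ without the stop codon, with the last glycine codon in capitals.
Map1lc3a: tcccaagaaaccttcGGCttc
Gabarap: gatgaaagcgtctatGGTctg
Gabarapl1: gatgaaagtgtctatGGAaaa
Gabarapl2: ggagagaacacttttGGCttc
In mm10 they lie in coding exons on the plus strand at chr2:155277614-155277634, chr11:69994501-69994521, chr6:129541144-129541164 and chr8:111952382-111952402. A single codon follows the glycine in each of the 4.

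Receptors bind ATG8 proteins through a short motif, tryptophan, any 2 residues, then leucine in the 3 shown here. Its codons, in capitals with 12 bases on each side, were found once in each of these reading frames. They start at codon 13 of 187 in Bnip3, codon 35 of 218 in Bnip3l and codon 340 of 442 in Sqstm1.
Bnip3: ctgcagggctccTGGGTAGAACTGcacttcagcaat
Bnip3l: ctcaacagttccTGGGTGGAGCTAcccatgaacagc
Sqstm1: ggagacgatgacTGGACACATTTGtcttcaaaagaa
The capitals lie in coding exons on the minus strand at chr7:138898812-138898823, chr14:66999688-66999699 and chr11:50202541-50202552. In Bnip3 and Bnip3l the bases before the capitals continue into the preceding exon.

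All 36 members reached 1 TPM in both libraries, against 52.2% of protein-coding genes, and 26 reached 10 TPM in both, against 26.4%. The median member stood at 18.9 ± 0.527 TPM, and the median of the 11201 coding genes at 1 TPM or more was 10.9 ± 0.170 TPM. Of the members, 25 lay above that median. Their sum was 0.189% of all TPM in replicate 1 and 0.190% in replicate 2. The ATG8 genes with Bnip3l, Bnip3 and Sqstm1 took 71.8% ± 0.504 of the members' TPM. The least covered member, Atg10, had 152 expected counts (reads after the authors' division among transcripts) in its lower library.

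**Figure D1:**
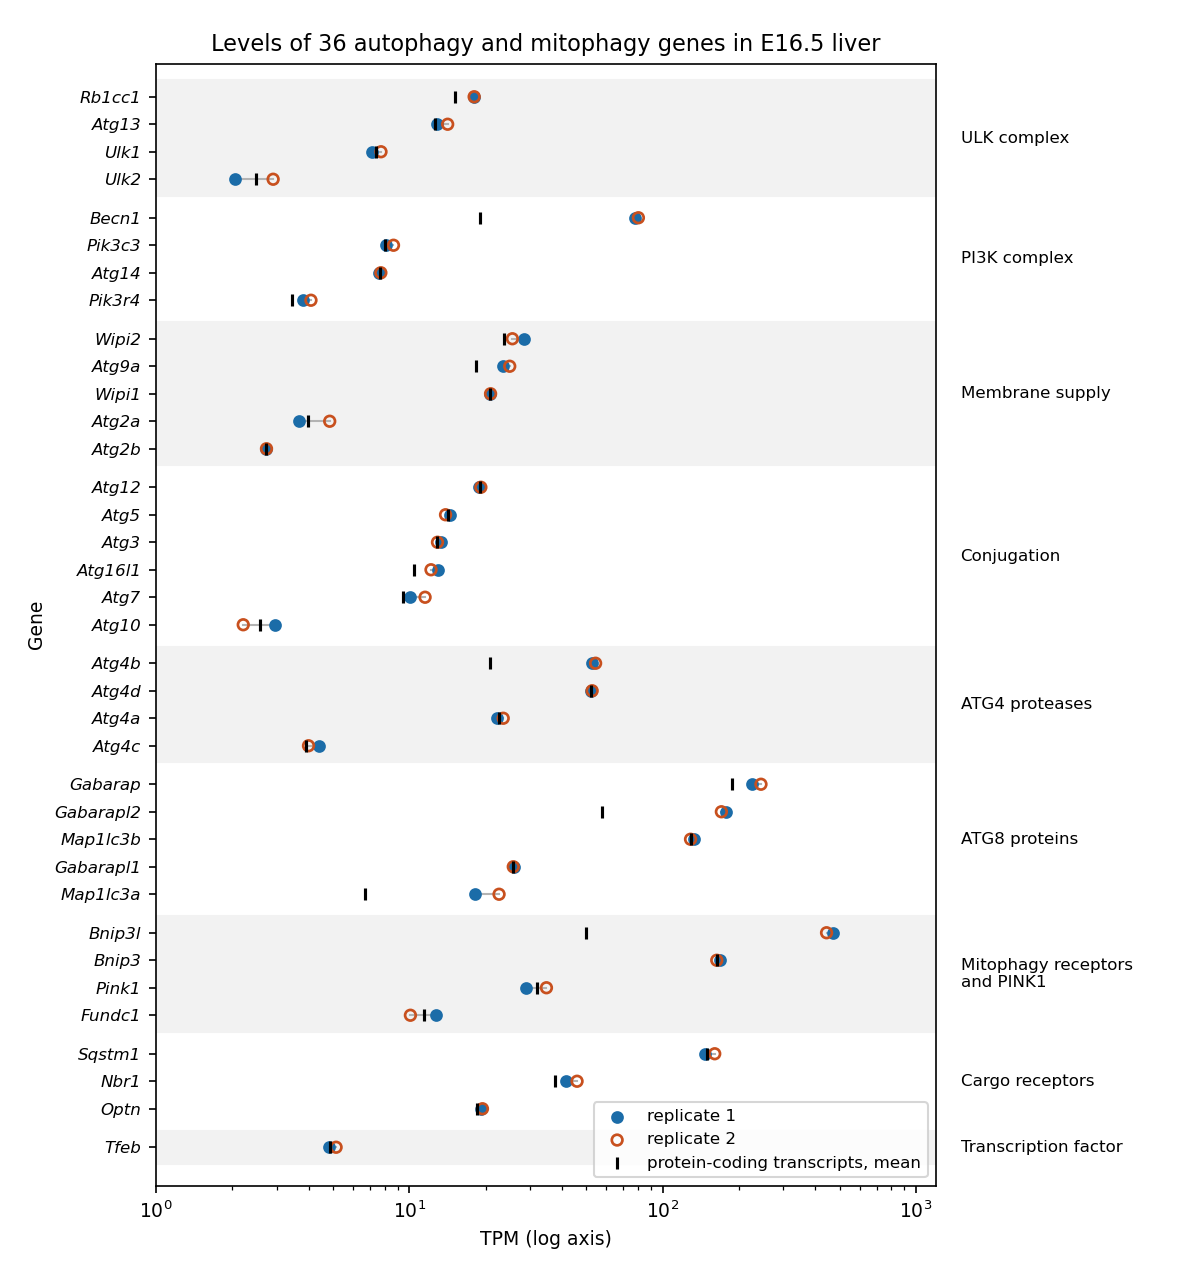
TPM of each member on a log axis, by role, with a filled point for replicate 1, an open point for replicate 2 and a black tick for the mean over protein-coding transcripts alone. Bnip3l is highest by gene, at 457, and its tick stands at 49.9; Becn1, Atg4b, Gabarapl2 and Map1lc3a also have ticks well below their points.

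The initiation genes had a median of 10.5 ± 0.697 TPM, close to that of expressed coding genes. Rb1cc1, the scaffold of the ULK complex also known as FIP200, was the highest at 18.02 TPM in replicate 1 and 18.03 in replicate 2 (18.03 ± 0.007). Atg13, the adaptor of the kinase, had 12.83 and 14.17 TPM (13.5 ± 0.948). Of the paralogous kinases, Ulk1 stood at 7.10 and 7.73 TPM and Ulk2 at 2.05 and 2.90 TPM (2.48 ± 0.601). Ulk1 was above Ulk2 in both libraries, 3.06 ± 0.564 times. Ulk2 had the lowest mean of all members.

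Among the lipid kinase genes Becn1, which encodes the regulatory subunit Beclin 1, stood far above the others, at 78.13 and 80.22 TPM (79.2 ± 1.48). Pik3c3, the catalytic subunit, followed at 8.08 and 8.66 TPM (8.37 ± 0.410). The subunit that directs the complex to the autophagosome, Atg14, had 7.56 and 7.72 TPM. Pik3r4, the scaffold kinase subunit, was lowest at 3.79 and 4.09 TPM (3.94 ± 0.212). The lead of Becn1 was mostly in transcripts not annotated as coding, as described below. Its coding transcripts summed to 18.97 ± 2.09 TPM, still above the other 3 subunits.

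In the membrane supply group Wipi2, a phosphoinositide effector, was highest at 28.26 and 25.52 TPM (26.9 ± 1.94). Atg9a, the lipid scramblase of Golgi-derived vesicles, had 23.39 and 24.91 TPM (24.2 ± 1.07), and Wipi1 had 20.78 and 20.93 TPM. The lipid transfer proteins were lower, Atg2a at 3.66 and 4.85 TPM and Atg2b at 2.73 TPM in both libraries. Libraries of Atg2a and Atg2b did not overlap with those of the other 3 genes.

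Conjugation genes lay close together except for Atg10. Atg12, the ubiquitin-like modifier, stood at 18.92 and 19.16 TPM (19.04 ± 0.170), and Atg5, its target, at 14.43 and 13.90 TPM (14.2 ± 0.375). The E2-like enzyme Atg3 had 13.33 and 12.92 TPM, Atg16l1, which places the conjugate on the membrane, 12.98 and 12.18 TPM, and the E1-like enzyme Atg7 10.10 and 11.54 TPM. Atg10, the E2-like enzyme for Atg12, had 2.94 and 2.21 TPM (2.58 ± 0.516), lower than the 5 others in both libraries.

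Of the ATG4 proteases, which trim ATG8 proteins and release them from lipid, Atg4b had 52.74 and 54.37 TPM (53.6 ± 1.15) and Atg4d 52.07 and 52.69 TPM (52.4 ± 0.438). They were the highest proteases, less than 2 TPM apart in each library. Atg4a, on the X chromosome, had 22.27 and 23.48 TPM. Atg4c was lowest at 4.41 and 4.00 TPM (4.21 ± 0.290). Atg4d has a single annotated transcript, while coding transcripts of Atg4b summed to 20.8 ± 0.226 TPM. Counted that way, Atg4d stood above Atg4b.

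The ATG8 genes had a family sum of 586 ± 9.51 TPM, and Gabarap, Gabarapl2 and Map1lc3b were among the highest members. Gabarap had 224.68 and 244.47 TPM (235 ± 13.99), Gabarapl2 177.51 and 170.58 TPM (174 ± 4.90) and Map1lc3b, which encodes LC3B, 132.62 and 128.88 TPM (131 ± 2.64). Far below these stood Gabarapl1, at 25.82 and 25.73 TPM, and Map1lc3a, at 18.19 and 22.61 TPM (20.4 ± 3.13). No pair of the 5 genes overlapped across the libraries. The GABARAP subfamily held 74.2% ± 0.337 of the family's TPM. Its share was 63.1% ± 0.111 of expected counts and 66.4% ± 1.32 of TPM over coding transcripts.

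Mitophagy receptors held the highest member and one close to the median of expressed coding genes. Bnip3l, an outer membrane receptor of mitochondria, had 471.06 and 443.75 TPM (457 ± 19.3), above 98.6% of expressed coding genes. Its paralog Bnip3 had 169.21 and 163.59 TPM (166 ± 3.97). The ratio of Bnip3l to Bnip3 was 2.78 in replicate 1 and 2.71 in replicate 2 (2.75 ± 0.050). Pink1, the kinase that marks damaged mitochondria for ubiquitin-dependent clearance, had 29.00 and 34.78 TPM (31.9 ± 4.09). Fundc1, a further outer membrane receptor, was lowest at 12.79 and 10.10 TPM (11.4 ± 1.90).

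Of the cargo receptors Sqstm1, which encodes the ubiquitin receptor p62, had 147.05 and 160.56 TPM (154 ± 9.55). Nbr1, a related receptor, had 41.39 and 45.94 TPM (43.7 ± 3.22), and Optn, which encodes the receptor optineurin, 19.22 and 19.44 TPM (19.3 ± 0.156). The order of these 3 was the same in both libraries. Tfeb, the transcription factor known to control lysosomal and autophagy genes, was low at 4.82 and 5.14 TPM (4.98 ± 0.226).

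With all members placed in order of mean TPM, 20 of 35 neighbouring pairs had libraries that did not overlap. The 12 highest, from Bnip3l through Gabarap, Gabarapl2, Bnip3, Sqstm1, Map1lc3b, Becn1, Atg4b, Atg4d, Nbr1 and Pink1 to Wipi2, followed one another without overlap. Lower down, neighbours such as Wipi2 and Gabarapl1, Atg9a and Atg4a, and Atg13 and Atg3 overlapped. Each neighbouring pair in the run Atg5, Atg13, Atg3, Atg16l1, Fundc1 and Atg7 also overlapped.

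Which transcripts carried these levels differed between members. The tables divide the reads of a gene among its annotated transcripts. In 8 members there is a single transcript, and 22 members have several and at least 10 TPM in both libraries. The most abundant transcript of 5 of these 22 (22.7%) is not annotated as protein coding, against 8.09% of 4326 such genes. The 5 are Bnip3l, Gabarapl2, Becn1, Atg4b and Map1lc3a. When transcripts were ordered by expected count, which favours long ones, 2 remained, Becn1 and Map1lc3a, against 4.16% of genes. The leading transcript differed between libraries in 0 of the 22 members and in 5.15% of genes, so 0 of 22 lay near the background. It held under 50% of the gene in 6 members (27.3%), against 21% of genes, so that count lay near the background. These 6 were Rb1cc1, Becn1, Atg9a, Atg4b, Bnip3l and Nbr1. Tfeb, under 10 TPM and outside that count, was led by Tfeb-202 with 48.2% ± 1.65.

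In Rb1cc1, Atg9a and Nbr1 the divided TPM lay mostly between coding transcripts. The leading transcript, itself coding, held 34.01% ± 2.42 of Rb1cc1, 37.7% ± 0.545 of Atg9a and 39.7% ± 3.85 of Nbr1. Coding transcripts together held 84.0%, 76.2% and 86.0% of the 3 genes. The median over the 22 members was 87.6% of TPM and 96.1% of expected counts, and over all such genes 94.1% and 97.2%.

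In Bnip3l most of the TPM lay in short transcripts. The gene lies on the minus strand of chromosome 14, 66985239 to 67008877 (mm10), and has 7 annotated transcripts. Bnip3l-205, a processed transcript of 789 nt without an annotated reading frame, had 191.89 and 177.69 TPM and held 40.4% ± 0.489 of the gene. Bnip3l-204, of 354 nt, had 146.2 and 139.37 TPM, and Bnip3l-206, of 446 nt, 77.13 and 74.76 TPM. The full coding transcript Bnip3l-201, of 3238 nt, had 52.58 and 46.54 TPM. In expected counts that order changed, to 6948 and 6645 for Bnip3l-201, 5574 and 5577 for Bnip3l-205, 1569 and 1617 for Bnip3l-204 and 1127 and 1180 for Bnip3l-206.

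**Figure D2:**
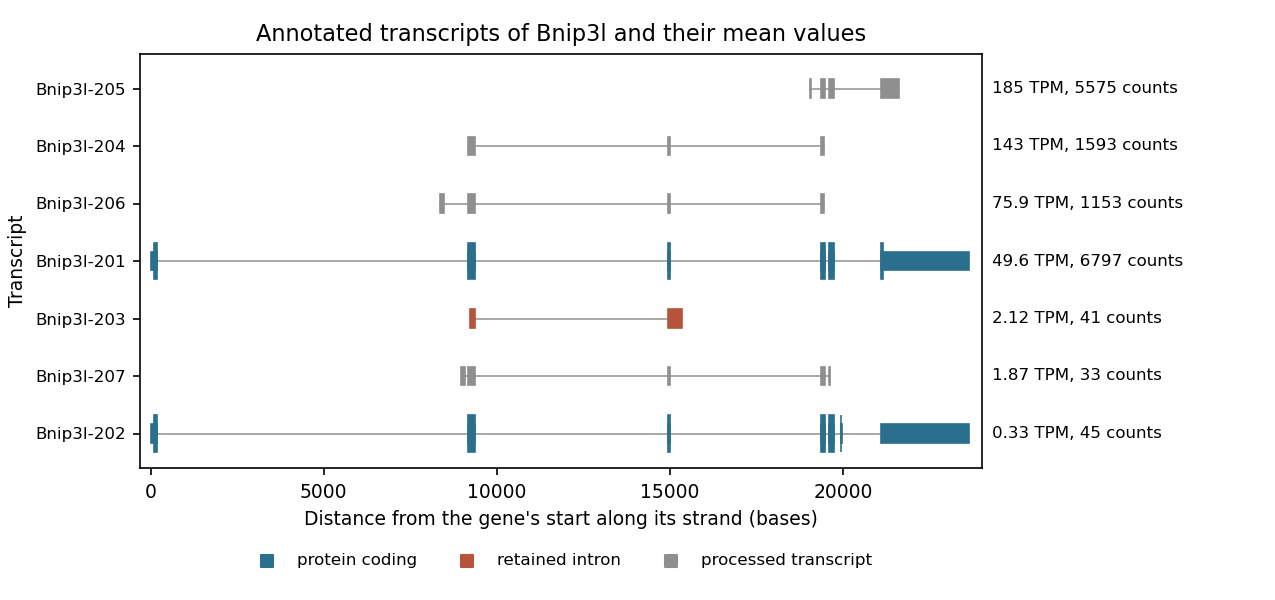
Exons (boxes) and coding exons (tall boxes) of the 7 annotated transcripts of Bnip3l by distance in bases from the gene's start, with the mean TPM and mean expected counts of each. The coding Bnip3l-201 spans the gene, while Bnip3l-205, Bnip3l-204 and Bnip3l-206, with the 3 highest TPM values, lie within it.

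Coding transcripts thus held 10.9% ± 0.504 of the TPM of Bnip3l and 44.9% ± 1.15 of its counts. Few bases separate the short transcripts from the coding ones. Of their own, Bnip3l-205 has 32 of 789 bases, Bnip3l-204 has 21 of 354 and Bnip3l-206 has 104 of 446. The other bases are shared, and the division of reads rests on these few and on where reads fall along the gene. The bases of their own (capitals), with the first 18 shared bases after them, are shown for the 2 most abundant.
Bnip3l-205: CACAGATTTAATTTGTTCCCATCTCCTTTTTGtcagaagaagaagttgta
Bnip3l-204: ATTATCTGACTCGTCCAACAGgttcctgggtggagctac
The capitals lie within introns of the coding transcript, on the minus strand at chr14:66989810-66989841 and chr14:66999705-66999725. Bnip3l-204 and Bnip3l-206 hold the codons of the receptor motif shown above but not the exon with the start codon, and Bnip3l-205 holds neither.

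The comparison with Bnip3 turned on this division. Bnip3 was almost all coding, with 98.1% of TPM and a full-length coding transcript in the lead (94.4% ± 4.68). By expected counts Bnip3l was 1.31 ± 0.011 times Bnip3. Over protein-coding transcripts alone the order reversed, to a ratio of 0.305 ± 0.020, with Bnip3l at 49.9 ± 4.41 TPM and Bnip3 at 163 ± 3.91 TPM. On that scale the highest members were Gabarap (187 ± 11.8), Bnip3, Sqstm1 (149 ± 6.49), Map1lc3b (130 ± 2.47), Gabarapl2 (57.6 ± 1.34) and Atg4d, and Bnip3l came seventh. These sums include coding transcripts with shorter frames, described below, among them Gabarap-202 at 131 ± 10.3 TPM. Members at 100 TPM or more in both libraries numbered 6 by gene and 4 by coding transcripts. By gene, 854 of the 11201 coding genes at 1 TPM or more reached that level. Their number by coding transcripts was not counted.

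Gabarapl2 and Map1lc3a were led by transcripts that lack the exon with the start codon. Gabarapl2-203, annotated with a retained intron, had 120.52 and 111.57 TPM, or 66.6% ± 1.76 of its gene, and its single coding transcript, of 1677 nt, had 56.62 and 58.51 TPM. In expected counts the coding transcript led, with 54.6%. For Map1lc3a the processed transcript Map1lc3a-203 had 12.17 and 15.21 TPM, or 67.1% ± 0.233, and 59.4% of counts. The coding Map1lc3a-201 had 6.01 and 7.40 TPM. Each leading transcript begins inside the first intron and runs on into the next exon, and its own bases number 92 of 749 and 69 of 826. Those of the more abundant, with 18 shared bases after them, are shown here.
Gabarapl2-203: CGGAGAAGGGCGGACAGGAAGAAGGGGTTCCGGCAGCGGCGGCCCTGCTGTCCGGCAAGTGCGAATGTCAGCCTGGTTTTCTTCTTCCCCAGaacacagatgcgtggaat
The capitals lie at chr8:111941068-111941159 on the plus strand.

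Becn1 and Atg4b were led by transcripts annotated as targets of nonsense-mediated decay, the pathway that degrades transcripts with an early stop codon. That of Becn1, of 2123 nt, had 35.40 and 33.35 TPM, or 43.4% ± 2.65 of the gene and 56.3% of its counts. It has an annotated frame of 105 codons, and 4 of its bases lie outside the coding transcripts. The coding transcript of Becn1 with the longest frame, 448 codons in 4365 nt, held 2.04% ± 0.257 of TPM. Coding transcripts of Becn1 together held 23.9% of TPM and 20.4% of counts, the lowest share of counts among the 22 members. These shares turn on the class of the 2123 nt transcript in M21, and whether M4 gave it the same class was not tested. Atg4b-204, of 919 nt and 143 codons, had 19.17 and 18.32 TPM (35.0% ± 1.89 of the gene). Atg4b-201, with 393 codons, had 15.60 and 15.91 TPM but 71.0% of the gene's counts.

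**Figure D3:**
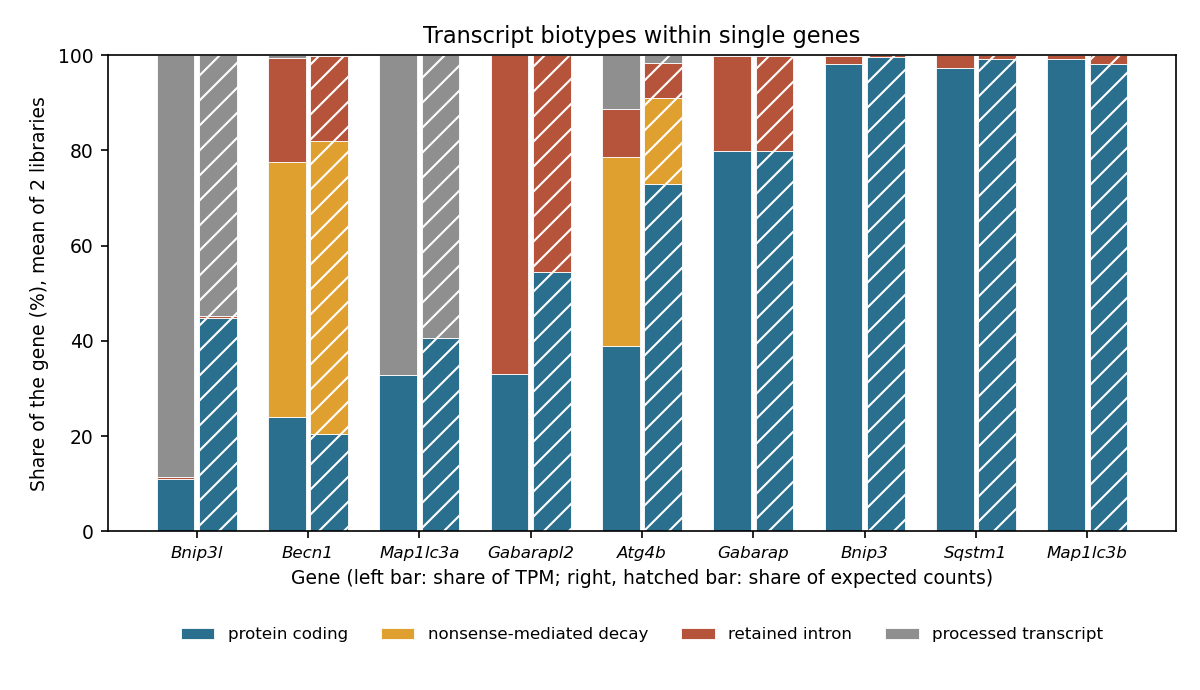
Share of each gene (%) by annotated transcript class, as the mean of both libraries, from TPM (plain bar) and from expected counts (hatched bar). The coding share of Bnip3l is 10.9% of TPM and 44.9% of counts, that of Becn1 is low on both scales, and Bnip3, Sqstm1 and Map1lc3b are almost wholly coding.

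A coding label did not mean a full reading frame. The leading transcript of Gabarap, Gabarap-202, had 123.29 and 137.88 TPM, or 55.6% ± 1.08 of the gene. It skips the first part of the third coding exon, and its annotated frame of 106 codons does not end in the glycine codon and tail shown above. Gabarap-201, with 117 codons, does, and it had 55.53 and 57.67 TPM, or 24.2% ± 0.796. Gabarap-202 has 0 bases outside the other coding transcript, and Gabarap-201 has 601 of 1351. The division between them rests on those bases, on reads across the skipped part and on where reads fall along the gene. Map1lc3b was also divided between coding transcripts, with 54.7% ± 2.34 of its TPM on Map1lc3b-201, of 125 codons. Map1lc3b-203, labelled coding with a frame of 66 codons, held 24.3%. In Sqstm1 the coding Sqstm1-204 has 109 codons, against 442 in Sqstm1-202, and held 23.8%.

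The order within the ATG8 family therefore depended on what was counted. By gene TPM, Gabarap held 40.0% ± 1.74, Gabarapl2 29.7% ± 1.32, Map1lc3b 22.3% ± 0.814, Gabarapl1 4.40% ± 0.082 and Map1lc3a 3.48% ± 0.477 of the family. By expected counts, which also grow with length, Map1lc3b led with 34.3%. By coding transcripts Gabarap led with 46.0%, and that lead rests on Gabarap-202, which has no bases of its own, and on how its reads were divided. Gabarap-201 alone, at 56.6 ± 1.51 TPM, was below Map1lc3b-201, at 71.5 ± 1.61 TPM, and overlapped the coding transcript of Gabarapl2, at 57.6 ± 1.34 TPM. On each of these 3 scales Gabarapl1 and Map1lc3a were the lowest. The annotated classes of all transcripts come from a later release than the one the authors quantified. Of the 213 transcripts 207 have the same length in both, which does not show that their class was the same.

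**Figure D4:**
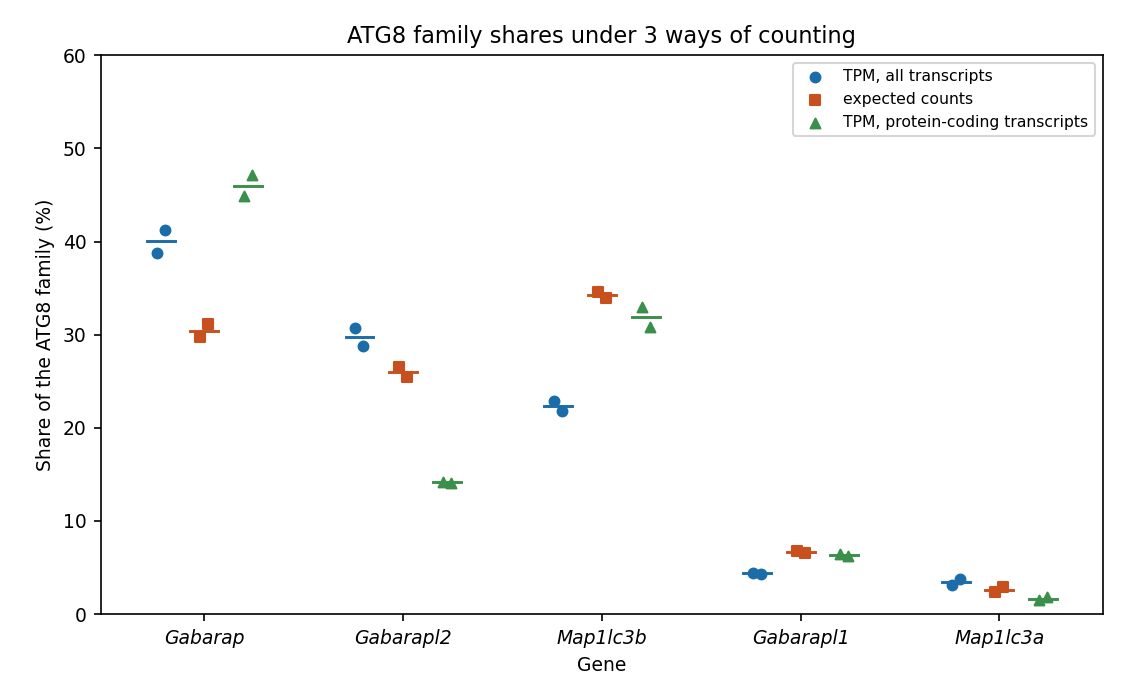
Share of the ATG8 family (%) held by each gene, with a point for each library and a bar for their mean, counted in 3 ways. Gabarap is highest by TPM of all or coding transcripts (40.0% and 46.0%), and Map1lc3b by expected counts (34.3%).

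The replicates were compared on the log2(TPM + 1) scale, as replicate 2 minus replicate 1 after subtraction of the median gene's difference. No member differed 1.5-fold, a size that 1.13% of 12017 genes reached. The median absolute difference was 0.07 for the members and 0.11 for all genes on that log2 scale, without matching for level. The most positive differences, higher in replicate 2, were those of Ulk2 (0.34), Atg2a (0.31), Map1lc3a (0.28) and Pink1 (0.24), and the most negative those of Fundc1 (-0.33) and Atg10 (-0.31). Scaled to the spike-ins instead, the median gene stood at -0.33 and the median member at -0.34, so the members shifted about as far as genes in general. On that scale 35 of the 36 members, all but Ulk2, were lower in replicate 2. The share of all genes that were lower was not counted. The intervals deposited with the TPM values did not overlap between libraries for 9 members, against 25.4% of genes, a share near that of all genes. Of these, Ulk2, Atg2a, Map1lc3a, Gabarap, Pink1 and Sqstm1 were higher in replicate 2, and Wipi2, Bnip3l and Fundc1 were lower. No header states the level of these intervals, and they do not cover the spread between pools.

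**Figure D5:**
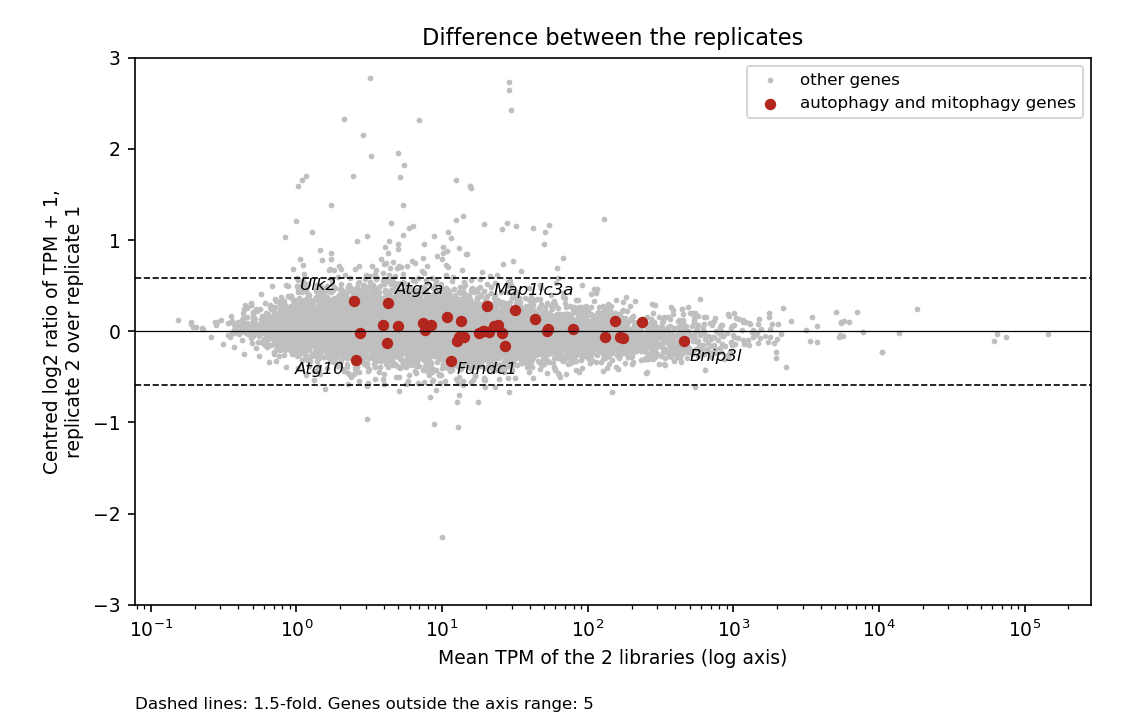
Centred log2 ratio of TPM + 1 between the replicates against mean TPM (log axis) for 12017 genes, with the members in red and dashed lines at 1.5-fold. All members lie between the lines, from -0.33 (Fundc1) to 0.34 (Ulk2).

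The libraries also differed in other tissues' markers. All 7 skeletal muscle markers that could be compared, of a list of 8, were past 1.5-fold and higher in replicate 2, with a summed level of 117.5 TPM in replicate 1 and 276 in replicate 2. Of 8 neuron markers, Gap43 alone reached 1 TPM, and the list summed to 2.36 and 3.52 TPM, with Neurod1 and Elavl3 listed at 0 in replicate 1. Liver and blood lists differed less. Hepatocyte markers summed to 36892 and 38928 TPM, erythroid markers to 3718 and 3789, neutrophil markers to 6194 and 6533, and macrophage markers to 344 and 371 TPM. None of these 4 lists of 8 had a gene at 0, and in the muscle list Myod1 stayed under 1 TPM. The part of any cell type in the members' differences was not tested. In bulk RNA fewer cells of a type and less RNA per cell cannot be told apart.

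Some members share sequence with other genes. The counts were whole numbers, within 0.01, for 25 members. They were not for the other 11, Rb1cc1, Becn1, Atg9a, Atg4a, Atg4d, Map1lc3b, Gabarapl2, Bnip3, Bnip3l, Pink1 and Sqstm1, which occurs where reads are divided among genes. Exons of 10 members overlap those of another gene in M21, and overlaps in M4, on which the reads were divided, were not tested. Shares over all genes were not counted for whole counts or overlaps. The longest overlap, 3104 bases, is between Becn1 and Cntd1 on the opposite strand, where Cntd1 had 0.615 TPM. Atg4d shares 1405 bases with Kri1 on the opposite strand (4.04 TPM), and Atg9a shares 1832 bases with Gm29253 on the same strand (2.14 TPM). The transcript of Atg4d has 2541 nt as quantified and 5951 in M21, so its overlap may differ in M4. No strand-specific step is named in the labels, so reads of opposite strands were treated as not told apart. The pseudogene Bnip3l-ps had 2.80 and 2.75 TPM, and its share of Bnip3l reads is uncertain.

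Promoter sequence was available for 29 members, as 34 RefSeq windows (GRCm38.p6) of 300 bases from 250 before to 50 after a transcript start. The E-box CACGTG, part of the element that Tfeb is known to bind, was present in 5 of these (17.2%), those of Atg14, Atg3, Atg5, Atg7 and Bnip3, against 8.09% of 27025 genes. The RefSeq starts of Atg14 and Atg7 lie 2215 and 27999 bases inside the gene as GENCODE M21 annotates it, so 2 of the 5 windows are not at that gene start. The longer TCACGTGA, which contains it, was in that of Atg3 alone, against 1.125% of genes. The full CLEAR element, in its palindromic consensus, was in 0 of the 29, against 0.370% of genes. The GATA motif AGATAA, searched on both strands like the others, was in 2 (6.90%), Atg4a and Atg4d, against 12.7%. A match describes these letters and not binding, and no measurement here bears on it.

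The other genes of the pathway, 58 of them from 4 lists, were expressed at a median of 13.8 ± 0.099 TPM, and 54 reached 1 TPM in both libraries. None differed 1.5-fold between the replicates among the 56 that could be compared. Of 12 further core genes, Vmp1, a scramblase of the endoplasmic reticulum, was highest at 70.49 and 78.34 TPM, followed by Ei24 (23.2 ± 0.297) and Atg101 (22.9 ± 0.622), an ULK complex subunit. Atg9b, the paralog of Atg9a, was lowest at 1.60 and 2.51 TPM. Atg9a was above Atg9b in both libraries.

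Among 16 further receptors and mitophagy genes Ncoa4, the receptor for ferritin, was highest at 307.47 and 311.45 TPM (309 ± 2.81), above all members but Bnip3l. Phb2, a mitochondrial inner membrane protein, had 188.49 and 180.02 TPM and Fkbp8, an outer membrane protein, 137.06 and 138.14 TPM. Of the 16, 15 reached 1 TPM in both libraries.

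Of 15 genes of lysosomal fusion and degradation, the proteases Ctsd (364 ± 6.72) and Ctsb (324 ± 10.0) and the SNARE protein Vamp8 (194 ± 12.9) were highest, and the tether Epg5 (2.59 ± 0.028) was lowest. All 15 reached 1 TPM in both libraries. Of 15 upstream regulators, Bcl2l1, a survival factor that binds Beclin 1, was highest at 187.8 and 210.39 TPM, followed by the mTOR activator Rheb (60.8 ± 0.516) and the zinc finger gene Zkscan3 (21.7 ± 0.290). Mitf, of the same family as Tfeb, was lowest at 0.30 and 0.35 TPM, and 12 of the 15 reached 1 TPM in both. Its relative Tfe3 had 8.44 and 9.93 TPM, above Tfeb in both libraries.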

How the data were processed

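Per the labels, RNA was extracted with a mirVana kit, molecules over 200 nt were kept, and 10 ng entered a SMARTer ultra-low input library with spike-ins. The authors deposited, per the file headers, expected counts (estimated counts divided among transcripts) and TPM on mm10 with GENCODE M4. The authors' posterior mean TPM served as an alternative. The aligner and its settings are not given in the sources used here. Deposited TPM sums to a fixed total that includes globins and spike-ins, so it depends on them.

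Expected counts totalled 44477766 in replicate 1 and 48820712 in replicate 2, and limit precision by counting error. Spike-ins took 2.50% and 3.19% of counts, and adult globins 34.8% and 34.0% of TPM. Identifiers were matched without version to GENCODE M21 for symbols, transcript classes and coordinates. Sequences came from M21 transcripts and RefSeq promoters.

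Replicates were compared by log2(TPM + 1) ratios over genes whose expected counts averaged at least 100, a scale that understates changes of low genes. The step was run on simulated data whose planted changes were all larger than 1.5-fold, so that run does not bear on smaller differences. TMM factors (edgeR 4.0.16) and DESeq2 1.42.0 size factors, on counts rounded to whole numbers, were alternatives, with no test. Python 3.11.15, pandas 2.3.3 and numpy 2.4.6 were used.

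The members and lists were chosen with earlier results of these data known. All members were named. Those given with an SD include the 2 highest and the lowest of each role and those led by a non-coding or minor transcript. Of other lists, the 3 highest and the lowest were named, and Tfe3, named after its value was seen. Some items that these rules select are not reported here.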

Additional observations from a re-analysis of the deposited data

How the results depend on the processing

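Detection of the members was the same at 0.5 TPM, with posterior mean TPM and in each library alone (36 of 36), and 29 reached 5 TPM. The median of 18.9 TPM became 32.2 with globins, mitochondrial genes and spike-ins left out of the total, 16.6 over coding transcripts alone, and 18.6 to 19.3 in single libraries. Scaling to the spike-ins moved all genes down by a median of 0.33 (log2) in replicate 2. The median member stood at -0.34 there, near the median gene. On that scale 2 members passed 1.5-fold, Atg10 (-0.62) and Fundc1 (-0.66), against 5.63% of genes. TMM and DESeq2 factors, the other pseudocount and filters, and no centring gave 0. A coding transcript led 23 of 28 genes at 1 TPM or more, 4 of 8 at 50 TPM or more, and 17 of 22 in single libraries. The share over all genes was not computed at 1 or 50 TPM. With expected counts in place of TPM, the shares of the ATG8 family were Gabarap 30.4%, Gabarapl2 25.99%, Map1lc3b 34.3%, Gabarapl1 6.70% and Map1lc3a 2.61%. Over coding transcripts they were 46.0%, 14.1%, 31.9%, 6.34% and 1.64% in that order. The ratio of Bnip3l to Bnip3 was 1.31 by counts and reversed to 0.305 over coding transcripts. The values over coding transcripts and the ordering by expected count were chosen after seeing the data. With posterior mean TPM, 28 of 36 levels moved by less than 1 SD and 8 by more. The largest ratio of posterior mean to TPM was that of Tfeb, at 6.38 against 4.98 TPM. No paired analysis was possible because the design has a single group.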
